A study of Homo sapiens with 5 samples.

Results

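SMAD2 binding was examined at the loci of 8 genes of the AP-1 family: JUN, JUNB, JUND, FOS, FOSB, FOSL1, FOSL2 and ATF3. The genes were chosen by name, and a SMAD2 summit was counted at a gene if it lay within 20 kb of the gene's span on hg19. Together the 8 windows cover 431 kb and hold 144 of 115321 bound regions (0.125%). A region is a chain of summits from any library with at most 200 bp between neighbours. The summits came from ChIP-seq with an anti-SMAD2 antibody in T47D, an estrogen receptor-positive luminal breast cancer cell line. Activin A was given at 50 ng/ml for 1.5 h to every cell sample with a summit list. The activin group (2 libraries) received nothing else, and the palbociclib group (2 libraries) also received palbociclib, an inhibitor of CDK4 and CDK6, at 1 µM for 24 h. How the 24 h and the 1.5 h overlapped is not stated, and "after palbociclib" stands here for the second group. The fifth sample, T47D input DNA with no treatment listed, was the control for peak calling and its signal was not analysed here. Summit lists say nothing of gene expression, so the identity of the cells and the activity of the 8 genes were not checked. The lists held 51535 and 54243 summits with activin and 62960 and 65207 after palbociclib, on chromosomes 1 to 22 and X. Their read depth is unknown.

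AP-1 is a dimer of basic leucine zipper proteins. JUN proteins pair with each other or with FOS proteins, whereas FOS proteins need a partner such as JUN to bind DNA. ATF3 belongs to the related ATF family and is induced by many stresses. Many of these genes are immediate-early genes, switched on within minutes to hours of a stimulus without new protein synthesis. Activin A is a ligand of the TGF-β family whose receptors phosphorylate SMAD2. SMAD2 then enters the nucleus with SMAD4, where SMAD complexes often act beside AP-1. JUNB is a known early target of TGF-β signalling.

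The 3 strongest regions at the 8 loci lay inside JUNB, ATF3 and JUN, and those of JUNB and JUN lay at the gene start. Whether the ATF3 region lies at one of that gene's several starts was not determined. The 250 bases before the RefSeq start of JUNB and JUN are printed as DNA next to their starts. FOS is shown because its start region ranked higher after palbociclib, and JUND because its start held weaker regions. Sequences are from RefSeq on GRCh38.p14, 5′ to 3′ on the gene's strand, and capitals mark the motifs searched. The positions are chr19:12791236-12791485 on the plus strand for JUNB, chr1:58784048-58784297 on the minus strand for JUN, chr14:75278578-75278827 on the plus strand for FOS and chr19:18281623-18281872 on the minus strand for JUND. The summits are on hg19, so the windows were not placed against them base by base. The regions at the starts of JUNB, JUN and FOS lay inside the gene spans, so the printed bases need not hold them.
JUNB: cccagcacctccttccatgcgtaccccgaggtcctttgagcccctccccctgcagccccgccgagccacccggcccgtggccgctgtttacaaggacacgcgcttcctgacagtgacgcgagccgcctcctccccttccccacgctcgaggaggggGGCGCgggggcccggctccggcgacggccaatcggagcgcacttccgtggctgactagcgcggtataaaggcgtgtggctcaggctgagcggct
JUN: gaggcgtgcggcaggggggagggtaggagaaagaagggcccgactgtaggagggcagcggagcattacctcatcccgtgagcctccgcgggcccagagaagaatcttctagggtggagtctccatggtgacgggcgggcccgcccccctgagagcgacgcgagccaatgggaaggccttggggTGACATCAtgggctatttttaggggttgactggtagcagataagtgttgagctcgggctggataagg
FOS: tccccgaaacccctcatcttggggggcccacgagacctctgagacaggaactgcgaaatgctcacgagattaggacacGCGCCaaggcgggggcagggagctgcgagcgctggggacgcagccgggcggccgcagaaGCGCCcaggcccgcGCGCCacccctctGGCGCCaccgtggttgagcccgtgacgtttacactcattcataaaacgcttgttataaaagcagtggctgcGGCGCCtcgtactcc
JUND: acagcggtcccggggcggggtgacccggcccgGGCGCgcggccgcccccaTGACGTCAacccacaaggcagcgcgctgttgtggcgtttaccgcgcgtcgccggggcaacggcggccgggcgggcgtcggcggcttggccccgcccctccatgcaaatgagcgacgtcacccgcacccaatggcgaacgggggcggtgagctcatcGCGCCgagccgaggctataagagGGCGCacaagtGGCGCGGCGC

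Motifs were searched on both strands in the whole RefSeq window of 300 bases, which runs 50 bases past the start. The table matched 7 of the 8 genes by symbol, with 8 windows because ATF3 has 2, and FOSL1 did not match. The AP-1 site (TGAGTCA or TGACTCA) was found in FOSL2 alone, and 4.95% of 35116 windows in the table hold it. It begins at base 5 of the FOSL2 transcript, and its surroundings at chr2:28392852-28392878 on the plus strand of GRCh38.p14 are printed here with the site in capitals.
FOSL2: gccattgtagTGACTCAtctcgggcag

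The variant TGACATCA, known from the JUN promoter, begins 67 bases before the start of JUN and 123 bases before the first start of ATF3. It is present in 2.61% of all windows and was added after the windows were read. The cAMP response element TGACGTCA begins 200 bases before the start of JUND and is present in 1.85% of all windows. The SMAD box CAGAC was found in 3 genes (ATF3, FOSB and FOSL2) and is present in 45.3% of all windows. The GC-rich SMAD motif GGCGC was found in 4 genes (FOS, FOSL2, JUNB and JUND) and is present in 48.6%. FOS held 7 matches and JUND 6, where a GGCGC that overlaps its own reverse complement counts as 2. The E-box CACGTG, searched for comparison, was found in none of the 7 genes and is present in 7.26% of all windows. These matches describe letters in a window and not bound sites.

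SMAD2 summits were dense at the 8 loci in every library. With activin, 72 and 79 summits lay in the 431 kb, and after palbociclib 78 and 85. The 4 libraries thus listed 16.7, 18.3, 18.1 and 19.7 summits per 100 kb of the loci, against 1.75, 1.84, 2.14 and 2.22 per 100 kb of the chromosomes, each measured from its first to its last summit. Windows around other genes were not examined, so the density is not called particular to AP-1 genes. The group means were 75.5 ± 4.95 with activin and 81.5 ± 4.95 after palbociclib (SD, n = 2 each), a ratio of 1.08, and the libraries of the groups overlapped. Their exact two-sided permutation p was 0.667, and the smallest p that 2 against 2 libraries allow is 0.333. The palbociclib lists were 1.21-fold as long as the activin lists. As a share of its list, the loci therefore took 0.140% and 0.146% of the activin summits and 0.124% and 0.130% of the palbociclib summits. This share was lower in both palbociclib libraries, with means of 0.143% ± 0.0042 and 0.127% ± 0.0046 (SD, n = 2 each), at the limiting exact permutation p of 0.333. The share was not computed for other genes or other dense windows, so its fall is not called particular to AP-1 genes.

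JUNB had the most summits of the 8 loci, and it was the only one with fewer summits in both palbociclib libraries. JUNB encodes a JUN protein that often opposes JUN in growth control. Its window held 20 and 23 summits with activin and 15 and 19 after palbociclib. Averaged over the 4 libraries that is 44.8 summits per 100 kb, beside 6.44 at ATF3, the locus with the lowest density. FOS, the partner of JUN proteins in classical AP-1, held 7 and 6 summits with activin and 10 and 11 after palbociclib, a ratio of 1.62. FOSL1, which encodes FRA1, held 13 and 12 and then 15 and 15. JUND, the JUN gene whose product is abundant in resting cells, held 10 and 10 and then 12 and 11. ATF3 held 4 and 6 and then 8 and 7. At these 4 loci both palbociclib counts were above both activin counts. JUN, the founding member of the family, held 5 and 5 summits with activin and 4 and 6 after palbociclib. FOSB, which encodes a FOS protein induced in neurons and many other cells, held 8 and 10 and then 8 and 11. FOSL2, which encodes FRA2, held 5 and 7 and then 6 and 5. At JUN, FOSB and FOSL2 the groups overlapped.

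These directions stand against a background of longer palbociclib lists. Of all 50-kb windows of the genome with at least 4 summits over the libraries, 17.3% had more in both palbociclib libraries and 3.21% had fewer. With at least 20 summits, as each of the 8 loci had, these shares were 33.3% and 5.54%. At the loci it was 4 of 8 with more and 1 of 8 with fewer. The windows of the loci measured 43 to 97 kb, so the match to 50-kb windows is rough. ATF3 (25 summits in 97 kb) and FOSL2 (23 in 63 kb) were less dense than 50-kb windows with at least 20 summits. Each of these 5 differences had the exact permutation p of 0.333. The lower count at JUNB and the higher counts at FOS and ATF3 kept their direction with windows of 5, 10 and 50 kb and with lists cut to equal length. The higher counts shrank with lists of equal length, though. Differences in means were then 2 at FOS and 0.5 at each of ATF3, JUND and FOSL1. In the full lists they were 4 at FOS, 2.5 at ATF3 and FOSL1 and 1.5 at JUND. At JUNB the difference was −6.5 with equal length and −4.5 in the full lists. Within 5 kb of the spans, JUND and FOSL1 had fewer summits after palbociclib, with differences in means of −1.5 and −1, and within 10 kb the difference was 0 at both.

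**Figure D1:**
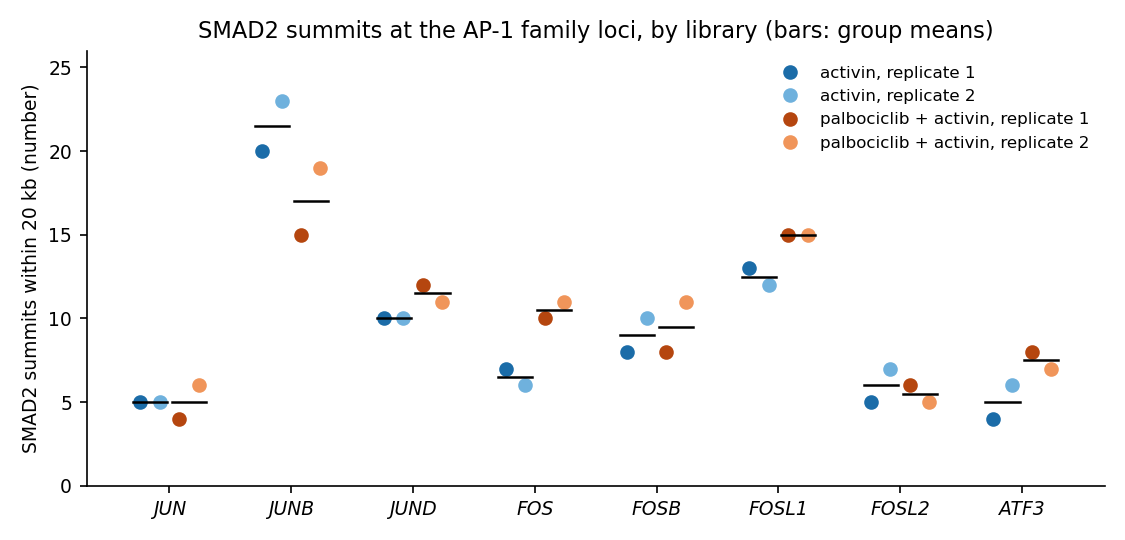
Number of SMAD2 summits within 20 kb of each gene span (vertical axis) in each of the 4 libraries (points), with the group mean as a horizontal bar. JUNB lies between 15 and 23 summits, above every other locus except for the lower palbociclib library at 15, which equals both palbociclib libraries at FOSL1.

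The strongest SMAD2 region of the loci, judged by the worst of a region's 4 ranks, was at the start of JUNB. It spans 12902298 to 12902318 on chromosome 19 (hg19), inside the 1-kb interval that holds the gene start. Its summits scored 263 and 294 with activin and 383 and 421 after palbociclib, where the score is read as −log10 q. Scores were not put on a common scale across lists, so this difference is not read as a change in binding. Its ranks were 203 and 141 with activin and 202 and 98 after palbociclib, within the top 0.394% of each list. Among the 23476 regions that have a summit in all 4 libraries, it stood at percentiles 99.2 and 99.4 with activin and 99.2 and 99.6 after palbociclib, where 100 is the strongest. In ranks and percentiles the groups overlapped, and the start of JUNB was among the strongest SMAD2 regions of T47D with and without palbociclib.

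ATF3 and JUN came next, and their values overlapped. The ATF3 region at 212782087 to 212782129 on chromosome 1 stood at percentiles 98.3 and 98.5 with activin and 96.9 and 98.9 after palbociclib. It lay 44.1 kb inside the span from its upstream end. ATF3 is transcribed from several starts, and which of them lies nearest on hg19 was not determined. The JUN region at 59249687 to 59249713 on chromosome 1 lay in the 1-kb interval of the gene start and stood at 97.7 and 95.6, and then 97.1 and 98.6. JUN has no introns, like JUNB and JUND. In both regions the libraries of the groups overlapped.

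FOSL1 differed from these genes in where its strongest region lay. That region, at 65655872 to 65655963 on chromosome 11, was 3.04 kb outside the span, beyond the end at which transcription of FOSL1 stops (FOSL1 is transcribed towards lower coordinates, which is background and not from the tables used). RefSeq's GRCh38.p14 annotation places CCDC85B, FIBP, CTSW and EFEMP2 on this side within 20 kb of FOSL1. It stood at percentiles 91.4 and 92.9 with activin and 96.6 and 96.7 after palbociclib. In the FOSL1 span itself, summits were listed only in the last part of the gene, up to position 65661063. The next summit of any library lay 21.1 kb further on, at 65682187, so the FOSL1 start had no listed summit. The nearest region found in all libraries was 6.97 kb into the gene, at percentiles 50.0 and 59.7 and then 31.3 and 58.9.

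The starts of FOSL2, FOS, JUND and FOSB had weaker regions than that of JUNB. At FOSL2 the region at 28615668 to 28615701 on chromosome 2 stood at percentiles 86.3 and 75.1 with activin and 79.2 and 87.9 after palbociclib. At FOS the region at 75745554 to 75745607 on chromosome 14 stood at 75.9 and 70.2, and then 87.3 and 84.5. Across the 4 libraries, the percentiles of the FOSL2 start region overlapped those of the FOS start region. This compares the genes and not the treatments. At JUND, a region at 18392999 to 18393098 on chromosome 19 stood at 59.4 and 55.8, and then 36.4 and 50.6. A neighbouring one at 18392495 to 18392540 stood at 70.4 and 38.9, and then 31.7 and 59.6, so that its replicates lay far apart in both groups. At FOSB the region at 45971275 to 45971330 on chromosome 19 stood at 36.5 and 28.7, and then 31.7 and 29.9. Another region in the FOSB window, 25.5 kb downstream of the start at 45996416 to 45996588, stood higher in 3 of the 4 libraries, from 39.2 in activin replicate 1 to 53.5 in palbociclib replicate 1, and lower in palbociclib replicate 2, at 27.3.

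Away from the starts the loci had different layouts. At JUN all 20 summits of the 4 libraries lay in a cluster 6.77 kb wide, and at least 18.2 kb of the window on either side of it held none. At FOSL2 the summits gathered around the start, and the next 23.2 kb, from 28617567 to 28640784, held none. At ATF3 no summit lay in the 39.5 kb between 212740698 and 212780161. FOS had 3 regions within 1 kb of the interval of its start, 5 between 10.9 and 19.7 kb upstream and 5 between 15.2 and 17.4 kb downstream of the start, with a 14.5 kb stretch free of summits after the start region. At JUNB neighbouring summits were at most 4.2 kb apart, and the free stretches at the ends of its window measured 1.08 and 4.34 kb. RefSeq places 4 other coding genes (HOOK2, PRDX2, THSD8 and RNASEH2A) within 20 kb of JUNB and 6 within 20 kb of FOSL1, but none within 20 kb of JUN, FOS or FOSL2. A summit in a window therefore need not belong to the AP-1 gene, at JUNB and FOSL1 above all. Without an hg19 annotation, regions were not assigned to exons, introns or neighbouring genes.

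**Figure D2:**
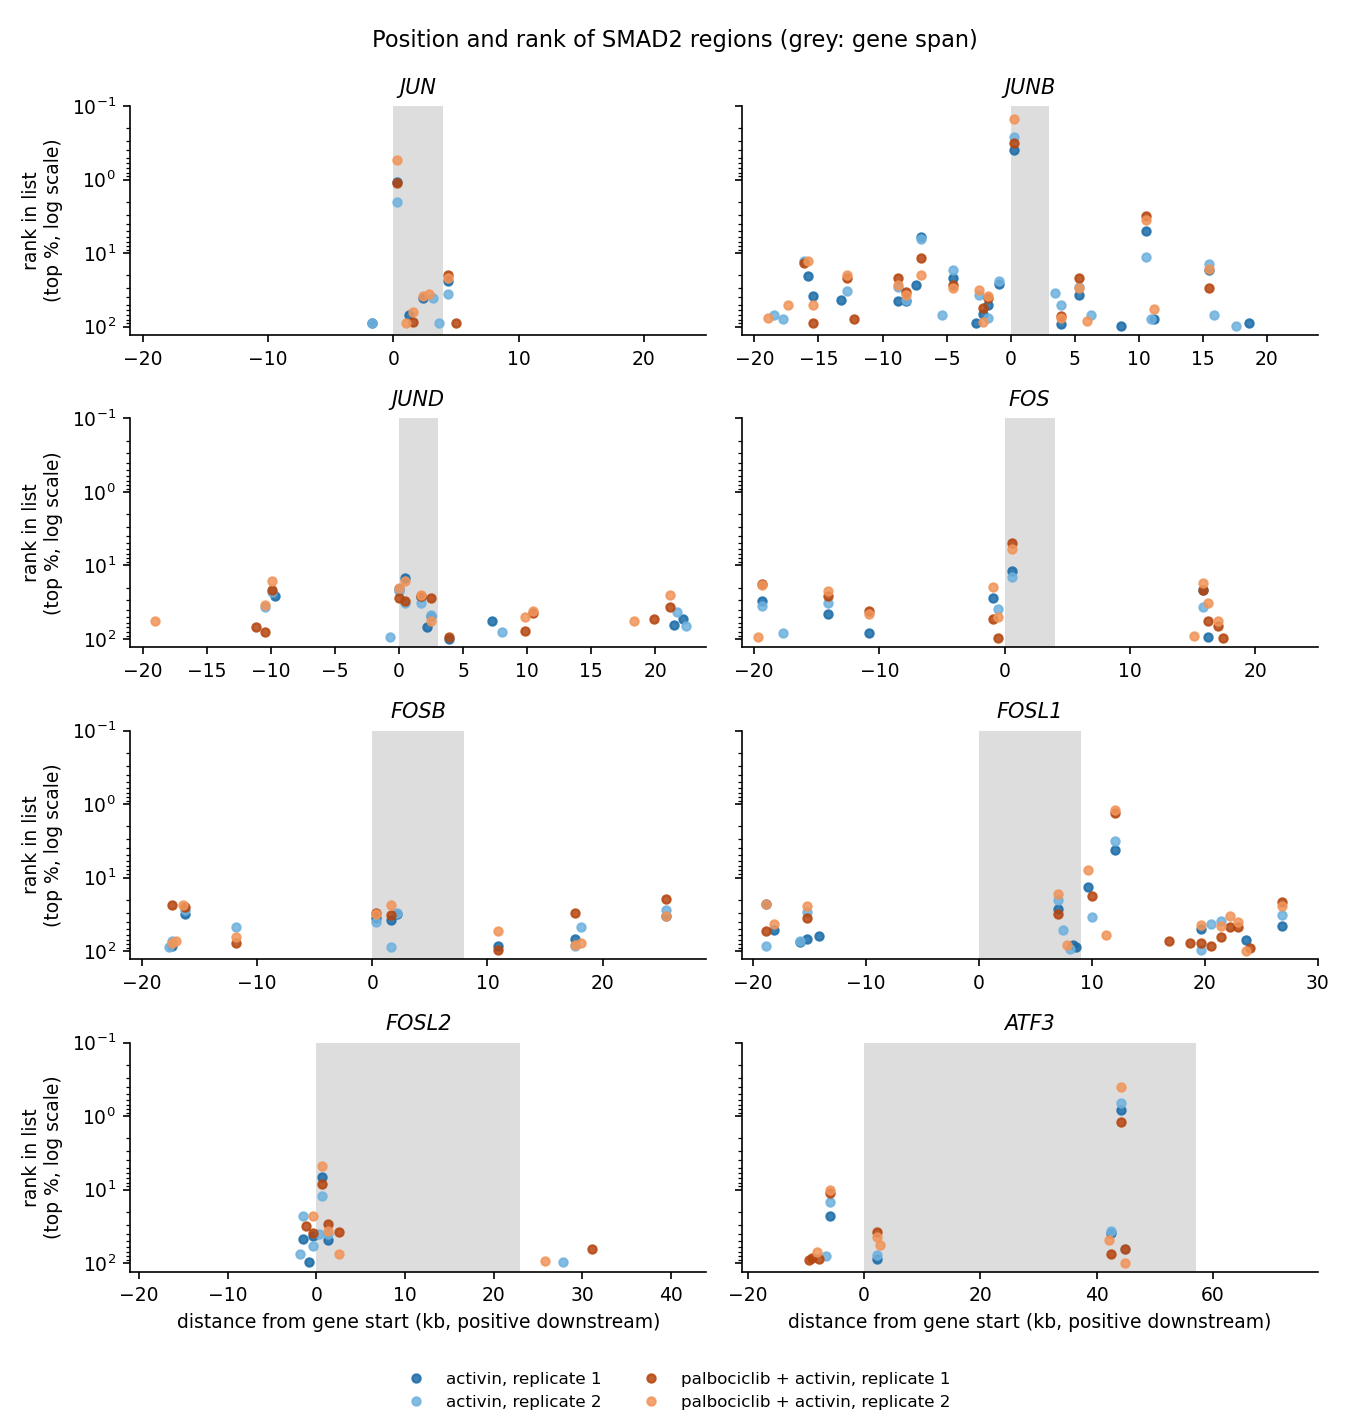
Position of each SMAD2 region relative to the gene start (horizontal axis, kb, positive downstream, counted from the outer edge of the 1-kb interval that holds the start) and its rank in each list (vertical axis, top percent, log scale, strongest at the top), with 1 point for each library and the gene span in grey. The top points are at the starts of JUNB and JUN and 44.1 kb into ATF3, and no point lies at the start of FOSL1.

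At the loci, regions close to the start of the AP-1 gene were found again in all libraries most often. Distance was taken from a single start of each gene. Other starts of ATF3 and starts of neighbouring genes could therefore count as distant. Shares by distance were not computed for other genes, so this pattern is not called particular to AP-1 genes. Of 20 regions within 1 kb of the interval of a start, 11 (55.0%) had a summit in all 4 libraries. The shares were 26.9% of 26 regions at 1 to 5 kb and 19.1% of 68 beyond 10 kb, and between these, at 5 to 10 kb, 6 of 30 regions were found in all libraries. Over all distances it was 37 of 144 (25.7%), beside 20.4% of all regions of the genome. Regions found in a single library made up 46.5% at the loci and 50.8% in the genome. The 11 start regions came from 6 genes and ranged from percentile 27.2 to 99.3 in their mean over libraries, so regions near a start were both weak and strong.

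Most of the shared regions ranked higher after palbociclib were at FOS, FOSL1 and ATF3, and most of those ranked lower were at JUNB. A shared region was called higher if both palbociclib libraries ranked it above both activin libraries, and lower in the reverse case. All 4 rankings run over the same 23476 regions and so have equal length, although which regions are shared still depends on the lists: with lists of equal length 33 instead of 37 were shared at the loci, and the counts of higher and lower regions stayed at 8 and 4. Of the 37 shared regions at the loci, 8 were higher (21.6%) and 4 lower (10.8%), beside 20.3% and 19.7% of all shared regions. The median difference was 2.89 percentile points at the loci and 0.246 over all shared regions. Counts of this size at the 8 loci as a whole are near the background. Of the 8 higher regions, 3 were at FOS, 2 at FOSL1, 2 at ATF3 and 1 at JUNB. Of the 4 lower regions, 3 were at JUNB and 1 at JUND. JUNB also held 10 of the 37 shared regions, the most of the 8 loci. FOSL1 held 6, FOS and JUND 4 each and ATF3 3. Counts by gene this small were not tested.

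FOS had 3 of its 4 shared regions (75.0%) in the higher class, beside 20.3% of all shared regions. This comparison rests on 4 regions and was not tested. The start region averaged 73.0 ± 4.1 with activin and 85.9 ± 2.0 after palbociclib (SD, n = 2 each), a difference of 12.9 points. The region 19.4 kb upstream, at 75725547 to 75725683, stood at percentiles 43.8 and 34.4 and then 57.5 and 55.3, a difference of 17.3. A region 14.1 kb upstream stood at 25.0 and 39.6 and then 40.0 and 46.5, where the groups were only 0.398 points apart. The remaining region, 15.8 kb downstream, stood at 58.5 and 34.1 and then 49.7 and 58.2 and overlapped. The summit count at FOS and the rank of these regions thus went the same way in these lists, and both were computed from the same summits.

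At JUNB, 3 of 10 shared regions were lower (30.0%) and 1 was higher (10.0%), beside 19.7% and 20.3% of all shared regions. Counts this small were not tested against those shares. The region 4.46 kb upstream, at 12897435 to 12897644, stood at percentiles 57.8 and 65.5 with activin and 38.5 and 32.4 after palbociclib, a difference of −26.2 points and the widest gap between groups at the loci. The region 6.98 kb upstream, at 12895013 to 12895023, stood at 87.8 and 86.4 and then 71.5 and 53.2, a difference of −24.7. A region 15.5 kb downstream, at 12917447 to 12917491, stood at 66.7 and 70.9 and then 33.4 and 60.2. The start region between them differed by 0.101 points, but at percentiles of 99.2 and above it is so near the top of the scale that this value cannot be set against the others. The higher one lay 10.6 kb downstream, at 12912527 to 12912589, and stood at 89.7 and 76.9 and then 92.1 and 90.9, groups that were 1.2 points apart.

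The other loci gave smaller numbers of such regions. At FOSL1 the strongest region differed by 4.51 points, and a region at 65641030 to 65641213 stood at percentiles 25.4 and 39.4 and then 49.8 and 42.2. Both lay outside the span, at 3.04 and 17.8 kb, on the side with CCDC85B, FIBP, CTSW and EFEMP2. At ATF3 the region 2.22 kb into the span, at 212740166 to 212740279, was near the bottom of the ranking with activin, at 2.51 and 5.29, and stood at 21.9 and 16.3 after palbociclib. The region 5.78 kb upstream of ATF3 stood at 56.4 and 70.3 and then 72.8 and 74.6. At JUND the region at the edge of the start differed by −14.1 points. JUN, FOSB and FOSL2 had no shared region whose groups were apart. With 2 libraries in a group, each of these differences has an exact permutation p of 0.333 at best.

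**Figure D3:**
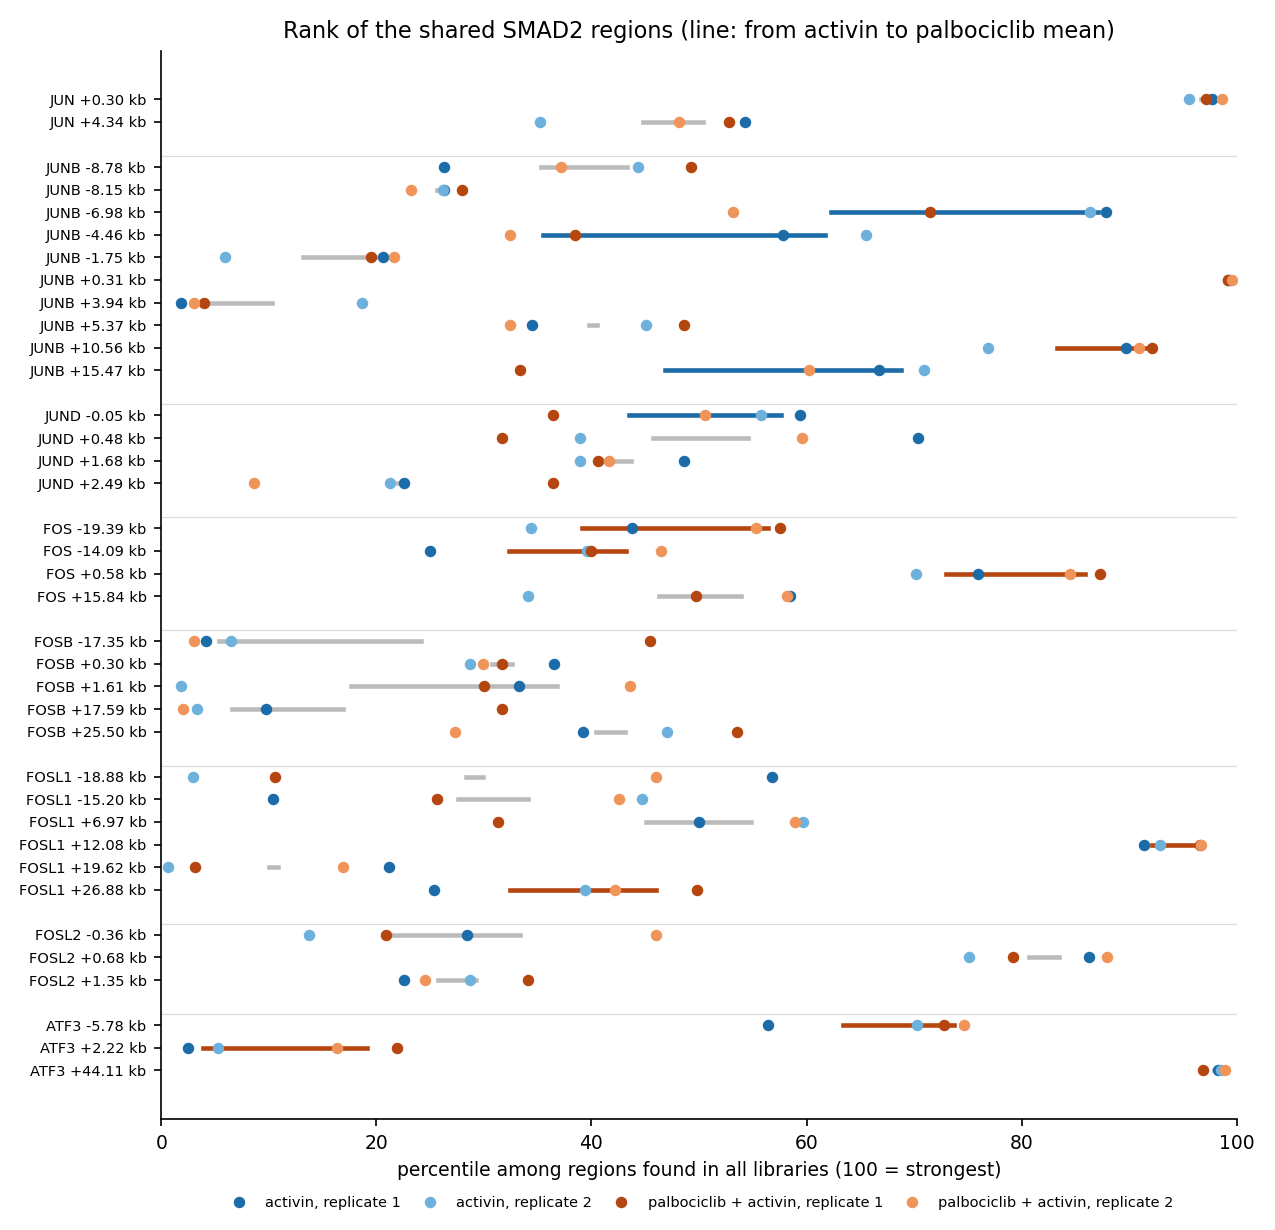
Percentile of each of the 37 shared regions among the 23476 regions found in all libraries (horizontal axis, 100 is the strongest), with 1 point for each library and a line from the activin to the palbociclib mean, drawn brown-orange where both palbociclib libraries ranked higher, blue where both ranked lower and grey where the groups overlapped. Rows give the gene and the distance from its start. The long blue lines are at JUNB 4.46 and 6.98 kb upstream and 15.5 kb downstream, and 3 of the 4 FOS lines are brown-orange.

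Few regions were found in both libraries of 1 treatment and in neither of the other, and these lay close to summits of the other treatment. In both palbociclib libraries and neither activin library there were 8 regions (5.56% of 144, beside 5.29% of all regions). In both activin libraries and neither palbociclib library there were 5 (3.47%, beside 2.22%). The 8 palbociclib-only regions lay at JUND (3), FOSL1 (2), JUN, FOS and FOSL2. Their nearest activin summit was 278 to 2362 bp away, with a median of 703.5 bp. The best of them, at 18371813 to 18371814 near JUND, ranked 23331 and 16465 in its lists, which is the top 37.1% and 25.3%. The 5 activin-only regions lay at JUN, JUNB, FOSB, FOSL1 and FOSL2, at 264 to 1879 bp from the nearest palbociclib summit. Those at JUNB (12901117 to 12901156, 0.864 kb before the interval of the start) and FOSL2 (28613506 to 28613555, 1.47 kb before it) lay upstream of the start regions. None of these 8 and 5 regions lay over 5 kb from a summit of the other treatment. Summits were dense at the loci and distances from other positions were not computed. Such closeness is therefore not called particular to these regions. A further 67 regions had a summit in a single library, 37 with activin and 30 after palbociclib, and their distances were not summarised.

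Some regions were split by position and not by treatment. At JUNB, activin replicate 2 and palbociclib replicate 1 had summits at 12885831 to 12885924, while activin replicate 1 and palbociclib replicate 2 had theirs 248 bp further on. At FOSL1 the same pairs of libraries had summits at 65657938 to 65657951 and 336 bp further on. Each library thus listed a summit at these places, in neighbouring regions. A summit is a single position in a stretch of enrichment of unknown width, so a missing summit in a region is not a lack of SMAD2 there.

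**Figure D4:**
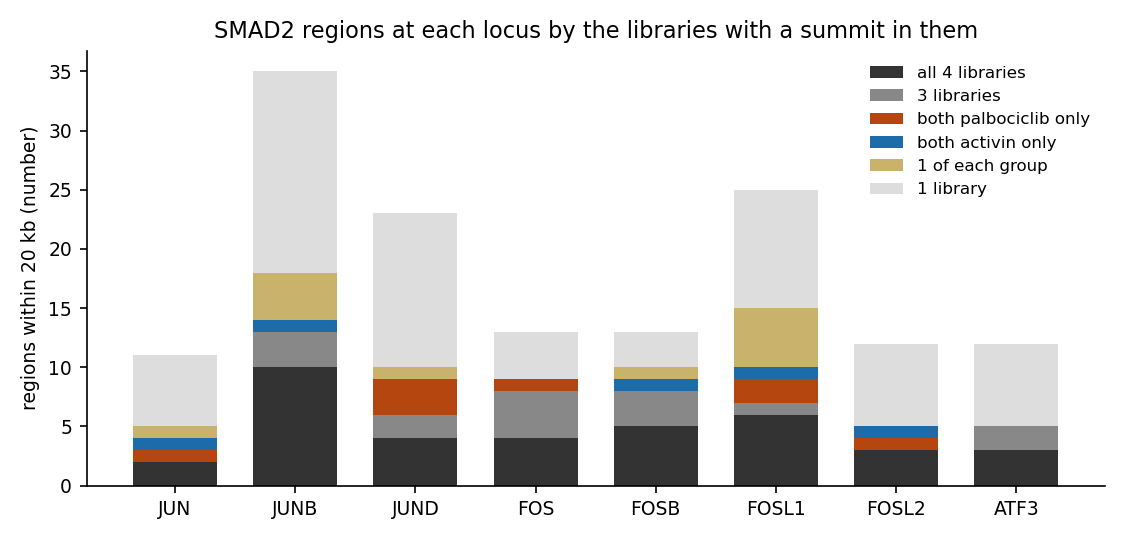
Number of regions within 20 kb of each gene (vertical axis), stacked by the libraries that have a summit in them: all 4, any 3, both palbociclib only, both activin only, 1 of each group, or 1 library. JUNB has the most regions (35) and the most found in all libraries (10), and the group-specific classes hold 0 to 3 regions for each gene.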

How the data were processed

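Each library has its own list of peak summits on hg19. Per the labels, peaks were called by MACS2 against the input. The submitters' processing notes name MACS2 2.0.9, Bowtie 1.1.0 and Picard, with filters and caller settings not given in the sources used here. The deposited lists give each summit with a score, read here as the −log10 q of the authors' peak caller because the lowest is 1.31 and −log10 of 0.05 is 1.3. Scores are printed for 1 region and otherwise used only to rank summits within a list. Gene spans were known to 1 kb. Strands and promoter windows came from RefSeq on GRCh38.p14, except the strand of FOSL1, which is background knowledge. From the lists were computed summits per locus, regions, and percentiles among regions shared by all libraries, with Python 3.11.15, numpy 2.4.6 and pandas 2.3.3; plots used matplotlib 3.10.9. Code was tested on simulated data. Groups were compared by an exact two-sided permutation test over 2 against 2 libraries. The labels do not say whether replicates were separate cultures, so their spread may be technical. The members, lists and tests were chosen with earlier results of these data known. Regions named were, at each locus, the strongest shared region (best worst rank over the 4 lists) and that nearest to the start, then up to 5 of each treatment alone and up to 5 per direction with the widest rank gap; others were chosen after their values were seen.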

Additional observations from a re-analysis of the deposited data

How the results depend on the processing

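The log2 ratio of summits at the 8 loci (0.11) turned to −0.114 within 5 kb of the spans, −0.0289 within 10 kb and −0.133 with lists of equal length, and was 0.0449 to 0.179 without each library in turn. The lower share of the list kept its direction under all 11 alternatives (−0.0203 to −0.00947 percentage points).

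Differences in summits per locus (palbociclib minus activin means) kept their direction at JUNB (−6.5 to −1.5), FOS (1 to 4.5) and ATF3 (0.5 to 3.5). Within 5 kb JUND gave −1.5 and FOSL1 −1, and both gave 0 within 10 kb. Within 50 kb FOSL2 gave 0.5. With lists of equal length FOSB gave −1.5 and JUN −1.5, while JUND, FOSL1 and ATF3 each gave 0.5. Without each library in turn, FOSB ranged from −1 to 2 and FOSL2 from −1.5 to 0.5.

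Palbociclib-only regions (8) numbered 2, 4 and 16 within 5, 10 and 50 kb and 3 with a gap of 1000 bp. Activin-only regions (5) numbered 10 within 50 kb, 3 with a score of at least 5, 2 with a gap of 500 bp and 2 with a gap of 1000 bp. Shared regions (37) numbered 21 within 5 kb. Shared regions ranked higher (8) numbered 3, 5 and 13 within 5, 10 and 50 kb, and those ranked lower (4) numbered 2 within 5 kb. Leaving out each library gave 14 to 27 palbociclib-only, 5 to 27 activin-only, 14 to 19 higher and 8 to 13 lower regions, because a group left with 1 library meets the definition more easily.

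Same-numbered libraries did not deviate together (correlation of rank deviations −0.038). With the replicate block the log2 ratio was 0.111, the share difference −0.0156, and 9 regions were higher and 5 lower; within same-numbered pairs, an average of 34 regions had a summit after palbociclib alone and 29 with activin alone.

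The rank difference of 16 named shared regions kept its direction in 148 of 157 values. It turned in 9, all with 1 library left out: the range was −0.108 to 0.29 percentile points at the start of JUNB, −22.5 to 5.9 at JUND 0.483 kb into the gene, −5.49 to 2.11 at the start of FOSB, −2.43 to 7.47 at the start of FOSL2, −22.9 to 3.89 at FOSL1 6.97 kb into the gene and −1.38 to 0.497 at ATF3 44.1 kb into the span. All of these overlapped between groups in the 4 libraries. Causes were not tested. Other AP-1-related loci and motifs at the regions were not run for want of hg19 sequence and annotation, and with read depth unknown a missing summit cannot be told from low coverage.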
